A study of Mus musculus with 6 samples.

Results

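The genes described are 39 markers of hippocampal identity: 8 of CA1, 5 of CA2, 7 of CA3 and 9 of the dentate gyrus, with 10 transcription factors and cofactors of forebrain excitatory neurons. They were chosen as a list of symbols with earlier results of these data known. All 39 were matched to an Ensembl identifier among the 48795 counted. The libraries were made from polyadenylated RNA of the hippocampus of tamoxifen-treated mice on a C57BL/6J background, 3 from double knockout (KO) mice and 3 from wild-type (WT) mice. KO mice carried floxed alleles of Kdm1a and Kdm5c and CreERT2, a recombinase that tamoxifen activates. The recombinase was placed under the CamKIIα promoter, which is active in forebrain excitatory neurons, the cells that these markers were chosen for. Interneurons, glia and vessels in the same tissue should then keep both genes, but recombination per cell type was not measured here. Both groups received tamoxifen, at 2 to 3 months of age. The KO genotype is labelled ifKO, and neither the alleles or CreERT2 that WT mice may have carried nor the age at dissection is given. The comparison asks how far the identity programme of these neurons differs once both enzymes are removed in adulthood.

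Pyramidal neurons of the fields CA1, CA2 and CA3 and granule neurons of the dentate gyrus are glutamatergic cells that form the serial circuit of the hippocampus. Each field has its own set of adhesion proteins, channels, calcium-binding proteins and transcription factors, which are laid down in development and maintained in the adult. KDM1A (LSD1) and KDM5C remove methyl groups from lysine 4 of histone H3, a mark of promoters and enhancers, and KDM1A works with the CoREST repressor that shuts non-neuronal genes in neurons.

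Total gene counts were 19342337 to 19637352 in the KO libraries and 19309576 to 19700249 in the WT libraries. Kdm1a measured 37.6 to 40.0 CPM (counts scaled to the TMM-adjusted total of the library) in KO and 69.2 to 76.6 CPM in WT, a log2 fold change of -0.93 (edgeR quasi-likelihood fit, Benjamini-Hochberg adjusted p = 4.32e-07). Kdm5c measured 65.3 to 74.3 CPM in KO and 77.2 to 82.8 CPM in WT and did not pass (log2 fold change -0.17, 95% interval -0.31 to -0.03, edgeR adjusted p = 0.143). These are whole-gene counts, which hold the deleted exons only in part and so check the labels only in part. Markers of choroid plexus and fibroblasts were uneven among the libraries: Ttr, the transthyretin of choroid plexus, was at 58.9, 1.6 and 55.9 CPM in KO replicates 1, 2 and 3 and 5.96 to 19.1 CPM in WT, and Col1a2, a fibroblast collagen, at 16.8, 6.65 and 17.5 CPM in KO and 6.56 to 8.36 CPM in WT. KO replicates 1 and 3 thus stood apart from KO replicate 2 and from WT, and results are also given without them where that matters. Separate mice for the 3 libraries of a group are not stated, and the p-values then speak for the spread among these libraries alone, which may be technical.

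Of the 39 identity genes 8 changed in KO, 4 in each direction, and 31 did not pass the test. Map3k15 of CA2, Coch of CA3, Dsp of the dentate gyrus and Pou3f1 of CA1 rose. Iyd and Nectin3 of CA3, Trpc6 of the dentate gyrus and Neurod6, a factor of pyramidal neurons, fell. A change means a Benjamini-Hochberg adjusted p under 0.05 from edgeR (quasi-likelihood) over all 16861 genes tested, and every adjusted p below comes from it unless another tool is named. The 8 are 20.5% of the members, all 39 of which passed the filter on low counts, against 6.95% of all genes tested. Members were chosen with earlier results known, and the part of that choice in this share was not tested. By direction, 5.9% of tested genes were higher in KO and 1.05% were lower. The median log2 fold change was -0.07 over the members and -0.01 over all genes tested, and KO and WT values did not overlap for 13 members (33.3%) against 25.2% of all genes tested. Every member had at least 28 counts in every library, and no test of the list against other genes was made.

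**Figure D1:**
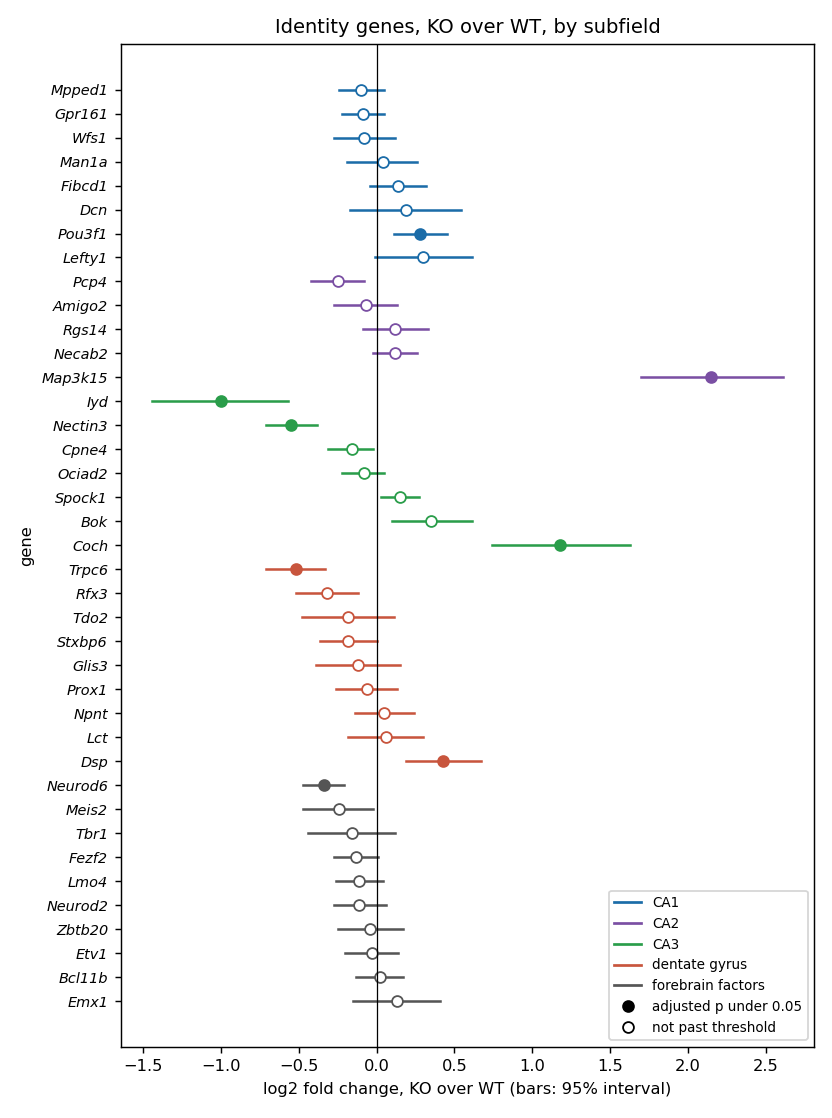
Log2 fold change of KO over WT for each of the 39 genes (points) with its 95% interval (bars), grouped and coloured by subfield, with filled points for the 8 genes past the threshold. Map3k15 at 2.15 and Coch at 1.18 lie farthest to the right and Iyd at -1.0 and Nectin3 at -0.55 farthest to the left, while the 31 genes that did not pass lie between -0.32 and 0.35.

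Of the 7 CA3 markers 1 rose and 2 fell (42.9% changed, the highest share among the 5 groups of genes), with a median log2 fold change of -0.08. In libraries of whole hippocampus, fewer cells of a type and less RNA per cell cannot be told apart. Nectin3 (ENSMUSG00000022656, chromosome 16, 46387706 to 46498525, minus strand, GRCm38) encodes an adhesion protein of synaptic junctions that is abundant in CA3 neurons. It measured 27.0, 26.3 and 25.4 CPM in the KO libraries and 37.3, 41.4 and 36.3 CPM in the WT libraries. Every KO value was below every WT value, and the level fell by 31.6% (log2 fold change -0.55, SE 0.0764, adjusted p = 0.000344).

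Iyd (ENSMUSG00000019762, chromosome 10, 3540240 to 3554877, plus strand) encodes iodotyrosine deiodinase, the enzyme that salvages iodide in the thyroid. It is a scarce transcript here, with 120 counts over the KO libraries and 238 over the WT libraries. Its level was 2.60, 2.06 and 1.47 CPM in KO and 4.18, 3.76 and 4.37 CPM in WT. The groups did not overlap, and the log2 fold change was -1.0 (SE 0.202, 95% interval -1.44 to -0.57, adjusted p = 0.00646).

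Coch (ENSMUSG00000020953, chromosome 12, 51593341 to 51605771, plus strand) encodes cochlin, a secreted matrix protein best known from the inner ear. It measured 6.78, 5.10 and 9.28 CPM in KO and 2.80, 3.50 and 3.02 CPM in WT, with no overlap (log2 fold change 1.18, SE 0.206, adjusted p = 0.00229). The 2 higher KO values belong to replicates 1 and 3, those with high Ttr and Col1a2. KO replicate 2, with Col1a2 in the WT range, was at 5.10 CPM of Coch, and the WT libraries were at 2.80 to 3.50 CPM. Without KO replicates 1 and 3 the log2 fold change of Coch was 0.71 (adjusted p = 0.211), and the part of fibroblast or choroid plexus RNA in this change was not tested.

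The stretches before the start sites of Coch and Iyd, the CA3 markers that moved furthest apart, are shown to set a promoter rich in CpG beside a promoter poor in it, since KDM1A and KDM5C act on a histone mark of promoters. Each run is the 250 bases before the RefSeq start site (RefSeq, GRCm38.p6), at chr12:51593091-51593340 on the plus strand and chr10:3540024-3540273 on the plus strand, 5′ to 3′, with each CG dinucleotide in capitals.
Coch: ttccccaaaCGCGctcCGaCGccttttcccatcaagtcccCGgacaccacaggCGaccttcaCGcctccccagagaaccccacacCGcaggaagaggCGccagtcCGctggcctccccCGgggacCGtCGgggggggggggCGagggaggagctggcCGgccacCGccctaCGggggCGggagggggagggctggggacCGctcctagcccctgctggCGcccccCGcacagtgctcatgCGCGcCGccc
Iyd: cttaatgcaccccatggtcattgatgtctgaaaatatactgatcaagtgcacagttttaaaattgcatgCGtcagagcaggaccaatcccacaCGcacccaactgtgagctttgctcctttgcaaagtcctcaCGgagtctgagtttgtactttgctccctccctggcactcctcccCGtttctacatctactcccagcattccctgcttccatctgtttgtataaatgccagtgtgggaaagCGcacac
The Coch window holds 24 CpG dinucleotides, an observed over expected ratio of 0.69, and the Iyd window 5, a ratio of 0.36.

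The other 4 CA3 markers did not pass. Bok, a member of the BCL2 family, measured 69.2, 78.7 and 80.2 CPM in KO and 58.5, 46.9 and 73.3 CPM in WT, so the lowest KO library lay under the highest WT library. Its interval was wide (log2 fold change 0.35, 95% interval 0.10 to 0.61, adjusted p = 0.105), and without WT replicate 3 its log2 fold change was 0.53 (adjusted p = 0.00165). Ociad2 measured 110, 111 and 115 CPM in KO and 112, 116 and 126 CPM in WT (log2 fold change -0.08, 95% interval -0.22 to 0.05), with overlap. Spock1, a testican proteoglycan, was at 269 to 281 CPM in KO and 238 to 263 CPM in WT, with no overlap (0.15, 95% interval 0.03 to 0.27, adjusted p = 0.154). Cpne4, a copine that binds phospholipids in response to calcium, was at 103 to 115 CPM in KO and 113 to 130 CPM in WT (-0.16, 95% interval -0.31 to -0.02, adjusted p = 0.191).

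Of the 5 CA2 markers Map3k15 rose, 0 fell, and the median log2 fold change was 0.12. At an unadjusted p under 0.05 edgeR gave 1 lower gene, Pcp4, and DESeq2 and limma-voom called 0 falls. Map3k15 (ENSMUSG00000031303, chromosome X, 159988433 to 160123351, plus strand) encodes ASK3, a kinase at the head of stress-activated cascades. Its level was 12.5, 10.7 and 9.54 CPM in KO and 2.5, 3.40 and 1.46 CPM in WT. The lowest KO library was well above the highest WT library, and the log2 fold change was 2.15 (SE 0.212, 95% interval 1.70 to 2.61, adjusted p = 1.26e-05), the largest among the 39. It passed in every alternative run, at log2 fold changes of 1.89 to 2.46, and without KO replicates 1 and 3 the value was 2.12. Of its exon bases 13.9% also belong to Pdha1 on the opposite strand, and the strand setting of the counting is not given. Pdha1, a subunit of pyruvate dehydrogenase, measured 165, 166 and 165 CPM in KO and 178, 159 and 161 CPM in WT (log2 fold change -0.01, adjusted p = 0.977).

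The other 4 CA2 markers did not pass. Rgs14, which restrains synaptic plasticity in CA2, measured 104 to 133 CPM in KO and 96.8 to 127 CPM in WT (log2 fold change 0.12, 95% interval -0.09 to 0.33). Amigo2, an adhesion protein, was at 30.3 to 31.8 CPM in KO and 28.6 to 37.9 CPM in WT (-0.07, 95% interval -0.27 to 0.13). Both overlapped between the groups. Necab2, a neuronal calcium-binding protein, measured 103, 102 and 103 CPM in KO and 100, 86.0 and 96.8 CPM in WT (0.12, 95% interval -0.02 to 0.26, adjusted p = 0.332). Pcp4, a regulator of calmodulin that is present in CA2 and in granule cells, measured 32.0, 33.1 and 32.0 CPM in KO and 42.6, 37.7 and 35.1 CPM in WT. Its KO values lay below its WT values without passing (-0.25, 95% interval -0.42 to -0.08, adjusted p = 0.0848), and without WT replicate 3 it passed (adjusted p = 0.0201). Pcp4 shares 23.7% of its exon bases with Igsf5 on the same strand, a gene at 0.356 to 0.405 CPM in KO and 0.458 to 0.574 CPM in WT.

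**Figure D2:**
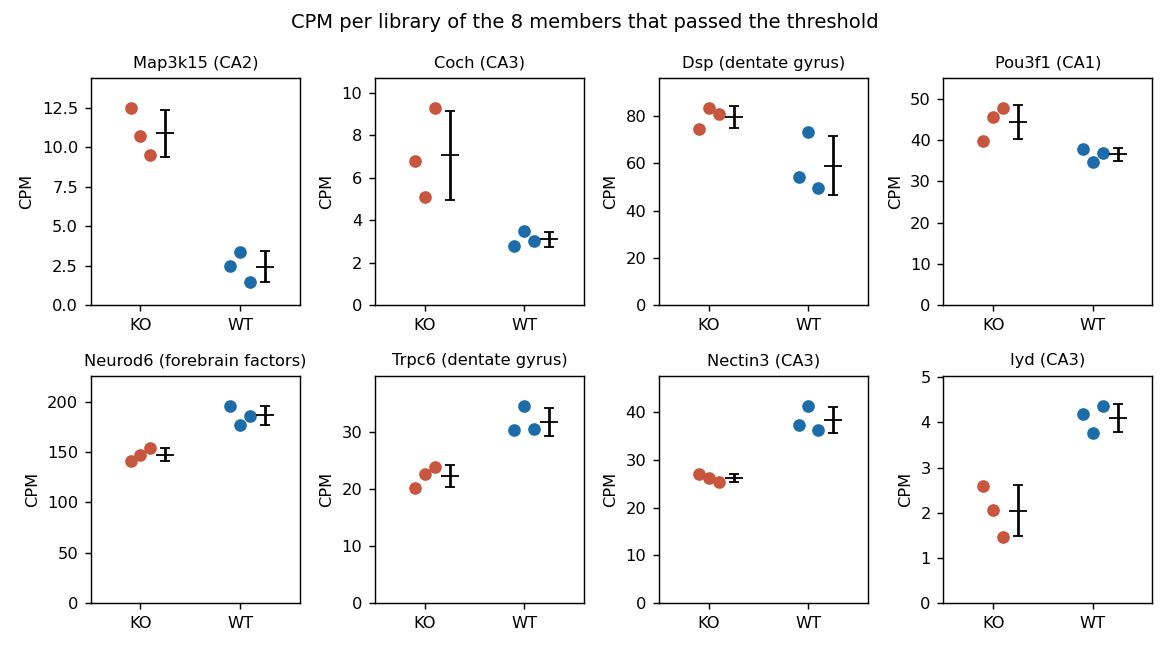
CPM in each library (points) of the 8 genes that passed the threshold, with KO to the left of WT, and the mean ± SD of each group (black bars, n = 3), on axes that start at 0. The groups do not overlap in any of the 8 panels, and relative to its level the gap is widest for Map3k15, at 9.54 to 12.5 CPM in KO and 1.46 to 3.40 CPM in WT.

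Among the 9 dentate gyrus markers Dsp rose and Trpc6 fell, and the median log2 fold change was -0.12. Trpc6 (ENSMUSG00000031997, chromosome 9, 8544142 to 8680741, plus strand) encodes a cation channel opened by diacylglycerol. It measured 20.1, 22.6 and 23.9 CPM in KO and 30.3, 34.6 and 30.5 CPM in WT, with no overlap, and fell by 30.1% (log2 fold change -0.52, SE 0.0888, adjusted p = 0.00207). Dsp (ENSMUSG00000054889, chromosome 13, 38151294 to 38198577, plus strand) encodes desmoplakin, which anchors intermediate filaments to cell junctions. It measured 74.3, 83.3 and 80.9 CPM in KO and 54.3, 73.1 and 49.5 CPM in WT. The WT values were spread and WT replicate 2 came close to the lowest KO library, with a log2 fold change of 0.43 (95% interval 0.19 to 0.67, SE 0.111, adjusted p = 0.0306). Dsp did not pass without KO replicate 2 (adjusted p = 0.109), KO replicate 3 (0.123), WT replicate 1 (0.128) or WT replicate 3 (0.0589).

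For the same reason as in CA3, the stretches before the start sites of the dentate markers that changed are set side by side, Dsp at chr13:38151044-38151293 and Trpc6 at chr9:8543892-8544141, both on the plus strand, with each CG in capitals.
Dsp: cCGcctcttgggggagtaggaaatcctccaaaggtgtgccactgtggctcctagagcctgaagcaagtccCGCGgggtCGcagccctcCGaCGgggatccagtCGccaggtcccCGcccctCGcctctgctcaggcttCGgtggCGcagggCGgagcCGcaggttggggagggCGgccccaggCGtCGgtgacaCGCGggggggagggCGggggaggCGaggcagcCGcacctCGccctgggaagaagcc
Trpc6: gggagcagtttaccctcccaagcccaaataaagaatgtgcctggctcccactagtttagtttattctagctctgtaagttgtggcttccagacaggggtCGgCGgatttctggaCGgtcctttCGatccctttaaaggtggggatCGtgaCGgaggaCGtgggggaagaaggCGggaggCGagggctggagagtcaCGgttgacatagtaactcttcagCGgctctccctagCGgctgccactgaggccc
The Dsp window holds 22 CpG dinucleotides (observed over expected 0.68) and the Trpc6 window 12 (0.62). Sequence was found for 34 of the 39 members in this RefSeq table, at the start site nearest to the GENCODE start of the gene. That site lay farthest off for Zbtb20, at 371403 bases, and Cpne4, at 22369 bases. Of these 34 windows 23 (67.6%) had a ratio of at least 0.6, against 34.3% of all 32851 promoter windows of the same length. Those windows were not limited to genes tested here or to 1 start site per gene, so the shares are not of like sets. The ratio is a description of the letters. It ran from 0.24 to 0.98 for the 4 that fell, was 0.68 and 0.69 for the 2 that rose and had a window, and ran from 0.09 to 1.09 for those that did not pass. The motif CAGATG on either strand, a form of the E-box CANNTG that NeuroD factors bind, stood in 5 windows (14.7%), against 14.4% of all windows. The general E-box CANNTG, which includes CAGATG, stood in 15 of the 34 windows, against 66.2% of all windows.

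The other 7 dentate markers did not pass. Prox1, the homeodomain factor that granule cells need for their identity, measured 94.7, 111 and 105 CPM in KO and 105, 124 and 94.5 CPM in WT. Its groups overlapped, and the interval of its log2 fold change of -0.06 ran from -0.26 to 0.13. Stxbp6, a SNARE-binding protein, measured 96.8, 112 and 109 CPM in KO and 123, 132 and 105 CPM in WT (-0.18, 95% interval -0.36 to 0.00). Rfx3, a transcription factor of ciliated cells, was at 81.1 to 90.9 CPM in KO and 95.4 to 127 CPM in WT. Its groups did not overlap but it did not pass (-0.32, 95% interval -0.52 to -0.12, adjusted p = 0.0603), though it did in DESeq2 (adjusted p = 0.0195). Lct, lactase, was at 53.2 to 67.0 CPM in KO and 49.0 to 68.2 CPM in WT, and Tdo2, a tryptophan-degrading dioxygenase, at 5.35 to 7.32 CPM in KO and 6.83 to 7.75 CPM in WT. Npnt, the integrin ligand nephronectin, was at 33.5 to 41.4 CPM in KO and 33.2 to 38.1 CPM in WT, and the zinc-finger factor Glis3 at 22.1 to 25.9 CPM in KO and 21.2 to 32.1 CPM in WT. The log2 fold changes of these last 4 were 0.06, -0.18, 0.05 and -0.12.

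The dentate markers shared their lowest KO library and their highest WT library. KO replicate 1 was the lowest KO library for 8 of the 9 genes, and WT replicate 2 was the highest WT library for 8 of the 9. The summed level of the 9 genes was 486 to 550 CPM in KO and 491 to 636 CPM in WT, so the groups overlapped. Trpc6 was at 20.1 CPM in KO replicate 1 and 34.6 CPM in WT replicate 2, beside 22.6 and 23.9 CPM in the other KO libraries and 30.3 and 30.5 CPM in the other WT libraries. Dsp was at 74.3 CPM in KO replicate 1 and 73.1 CPM in WT replicate 2, beside 83.3 and 80.9 CPM in the other KO libraries and 54.3 and 49.5 CPM in the other WT libraries. The part of these library differences in the changes of Trpc6 and Dsp was not tested.

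**Figure D3:**
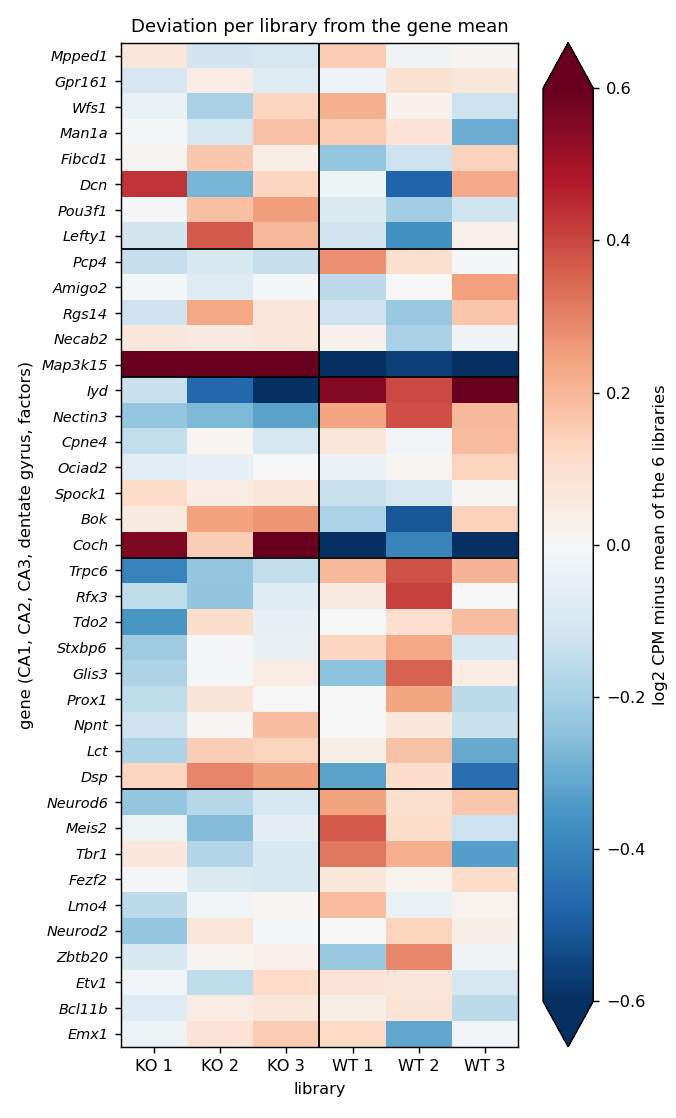
Log2 CPM of each gene in each library minus its mean over the 6 libraries (colour, limited to -0.6 and 0.6), with the KO libraries to the left of the WT libraries and lines between the subfields. Map3k15 and Coch are high in all 3 KO libraries and Iyd, Nectin3, Trpc6 and Neurod6 low, while most dentate genes are lowest in KO replicate 1 among KO libraries and highest in WT replicate 2 among WT libraries.

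Of the 8 CA1 markers Pou3f1 rose and 0 fell, and the median log2 fold change was 0.09. At an unadjusted p under 0.05 edgeR also gave 0 lower genes, and DESeq2 and limma-voom called 0 falls. Pou3f1 (ENSMUSG00000090125, chromosome 4, 124656807 to 124660655, plus strand) encodes a POU-domain transcription factor. It measured 39.9, 45.6 and 47.8 CPM in KO and 37.9, 34.8 and 37.0 CPM in WT, without overlap, a rise of 21.5% (log2 fold change 0.28, SE 0.0780, adjusted p = 0.0455). This call had the largest adjusted p of the 8 and was lost in limma-voom (adjusted p = 0.0543), with a replicate block (0.0611), and on leaving out KO replicate 2 (0.162), KO replicate 3 (0.239), WT replicate 1 (0.0781), WT replicate 2 (0.114) or WT replicate 3 (0.0512). An antisense gene, Gm2164, covers 8.57% of the exon bases of Pou3f1 and was at 1.43 to 2.16 CPM in KO and 1.09 to 1.36 CPM in WT.

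The other 7 CA1 markers did not pass. Mpped1, a metallophosphoesterase, measured 258, 228 and 230 CPM in KO and 274, 243 and 249 CPM in WT (log2 fold change -0.10, 95% interval -0.24 to 0.05). Fibcd1, a chitin-binding membrane protein, measured 209, 231 and 212 CPM in KO and 176, 189 and 227 CPM in WT (0.14, 95% interval -0.04 to 0.32). Wfs1, the endoplasmic reticulum protein wolframin, was at 132 to 165 CPM in KO and 138 to 175 CPM in WT (-0.08, 95% interval -0.27 to 0.12). All 3 overlapped between the groups. Gpr161, a receptor of primary cilia that restrains Hedgehog signalling, was at 112 to 124 CPM in KO and 118 to 128 CPM in WT, and the Golgi mannosidase gene Man1a at 57.0 to 69.0 CPM in KO and 49.7 to 67.8 CPM in WT. Lefty1, an antagonist of Nodal signalling, was at 7.90 to 11.0 CPM in KO and 6.63 to 8.69 CPM in WT (0.30, 95% interval -0.01 to 0.61). Dcn, decorin, which fibroblasts make in quantity, measured 76.3, 46.6 and 61.8 CPM in KO and 55.5, 40.6 and 66.3 CPM in WT (0.19, 95% interval -0.17 to 0.54). KO replicate 2, the KO library with Col1a2 in the WT range, had the lowest KO value for Dcn, and without KO replicates 1 and 3 its log2 fold change was -0.22.

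Of the 10 forebrain factors Neurod6 fell and 0 rose, with a median log2 fold change of -0.11. At an unadjusted p under 0.05 the edgeR test gave 0 rises, and DESeq2 and limma-voom called 0 rises. Neurod6 (ENSMUSG00000037984, chromosome 6, 55677822 to 55681263, minus strand), a basic helix-loop-helix factor of pyramidal neurons, was the member with the highest level per length, at 77.6 CPM per kilobase of exon over all libraries. It measured 141, 147 and 154 CPM in KO and 196, 177 and 186 CPM in WT. With no overlap between the groups it fell by 21.0% (log2 fold change -0.34, SE 0.0623, adjusted p = 0.00332). Its relative Neurod2 measured 113, 140 and 132 CPM in KO and 133, 146 and 136 CPM in WT, with overlap (-0.11, 95% interval -0.27 to 0.06, adjusted p = 0.487). Whether these changes in Neurod6 and Neurod2 differ was not tested.

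The remaining 8 factors did not pass. Bcl11b (CTIP2), a zinc-finger factor of CA1 and granule neurons, was at 134 to 149 CPM in KO and 127 to 150 CPM in WT (log2 fold change 0.02, 95% interval -0.13 to 0.17). Zbtb20, which directs CA1 identity in development and is also made by astrocytes, was at 250 to 272 CPM in KO and 228 to 325 CPM in WT (-0.04, 95% interval -0.25 to 0.17). Fezf2, a zinc-finger factor of cortical projection neurons, was at 38.8 to 41.1 CPM in KO and 42.1 to 44.8 CPM in WT, with no overlap (-0.13, 95% interval -0.27 to 0.01, adjusted p = 0.276). The homeobox gene Meis2 was at 41.0 to 48.0 CPM in KO and 44.8 to 63.2 CPM in WT (-0.24, 95% interval -0.47 to -0.02, adjusted p = 0.211). Tbr1, a T-box factor of glutamatergic neurons, was at 38.6 to 45.6 CPM in KO and 34.7 to 54.3 CPM in WT, and Lmo4, a LIM-only cofactor, at 127 to 143 CPM in KO and 138 to 161 CPM in WT. Emx1, a homeobox factor of the dorsal forebrain, was at 8.0 to 9.08 CPM in KO and 6.58 to 8.87 CPM in WT, and the ETS factor Etv1 at 46.7 to 56.3 CPM in KO and 48.5 to 55.0 CPM in WT. The log2 fold changes of these last 4 ran from -0.16 to 0.13.

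Between 1 and 3 markers changed in each group of genes, 10% to 42.9% of its markers, against 6.95% of all genes tested. These shares carry the same limit, as the markers were chosen with earlier results known. Counts of rises and falls were 1 and 0 in CA1, 1 and 0 in CA2, 1 and 2 in CA3, 1 and 1 in the dentate gyrus, and 0 and 1 among the factors. The mean log2 CPM over the markers of a field was 6.26 to 6.34 in KO and 6.12 to 6.25 in WT for CA1, a KO minus WT difference of 0.086 beside SDs of 0.043 in KO and 0.070 in WT. It was 5.18 to 5.24 in KO and 5.19 to 5.32 in WT for CA3, and 5.32 to 5.53 in KO and 5.42 to 5.73 in WT for the dentate gyrus. For the factors it was 6.12 to 6.20 in KO and 6.16 to 6.32 in WT. CA3, the dentate gyrus and the factors overlapped between the groups, and CA1 did not, by a narrow margin. As summed CPM, in which the most abundant genes weigh most, CA1 overlapped too (875 to 910 CPM in KO and 861 to 912 CPM in WT), as did CA2 (284 to 309 CPM in KO and 256 to 298 CPM in WT). In mean log2 CPM CA2 was at 5.37 to 5.43 in KO and 4.92 to 5.02 in WT, a difference of 0.424, but its other 4 genes had log2 fold changes between -0.25 and 0.12 against 2.15 for Map3k15. No test was made between the fields.

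For each of the 31 members that did not pass the 95% interval of the log2 fold change lay between -0.52 and 0.61, and for 29 of them it lay inside a 1.5-fold change in either direction. Lefty1 and Bok reached further, both up to 0.61. Per kilobase of exon over all libraries the members ran from 1.54 CPM for Map3k15 to 77.6 CPM for Neurod6. The 4 genes with the largest changes were low by this measure, at 1.54 CPM per kilobase for Map3k15, 1.69 for Coch, 1.89 for Iyd and 2.53 for Nectin3. The only other member under 2.53 was Tdo2 (1.77), which did not pass. That bound is the value of Nectin3 and was set after the changes were seen. Glis3, at 2.87, had a log2 fold change of -0.12, and Trpc6, at 5.33, one of -0.52.

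Among further markers of the same neurons 4 changed. Of 6 other CA1 genes 0 changed (5 of 6 log2 fold changes negative, median -0.16), with 1 higher and 1 lower at an unadjusted p under 0.05 and 0 calls in DESeq2 or limma-voom. Of 7 other CA2 genes Cacng5 rose (14.3%), of 5 other CA3 genes Prkcd rose (20%), and of 9 other dentate genes C1ql2 rose and Cdh9 fell (22.2%). The share over all genes tested was 6.95%. Cacng5, an auxiliary subunit of AMPA receptors, measured 16.1, 17.1 and 16.7 CPM in KO and 10.2, 10.6 and 11.0 CPM in WT (log2 fold change 0.65, SE 0.0917, adjusted p = 0.000403). Prkcd, a protein kinase C, measured 44.9, 46.2 and 47.9 CPM in KO and 31.5, 37.7 and 35.7 CPM in WT (0.41, SE 0.0761, adjusted p = 0.00380). C1ql2, a secreted synaptic organiser of mossy fibres, measured 82.3, 113 and 94.8 CPM in KO and 72.0, 65.6 and 73.8 CPM in WT (0.46, SE 0.0957, adjusted p = 0.00847). Cdh9, a cadherin of mossy fibre synapses, measured 34.4, 34.6 and 35.7 CPM in KO and 43.1, 50.1 and 43.6 CPM in WT (-0.38, SE 0.0742, adjusted p = 0.00486). In each of these 4, named because they passed, the groups did not overlap, as for 25.2% of all genes tested. Of 6 hilar mossy cell genes 0 changed, with 0 at an unadjusted p under 0.05 and 0 calls in DESeq2 or limma-voom.

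Genes listed for excitatory neurons in general did not pass the test. Of 17 such genes, among them Slc17a7, the vesicular glutamate transporter, and Camk2a, the kinase whose promoter drove the recombinase, 0 passed in edgeR, with 1 higher and 2 lower at an unadjusted p under 0.05 and 0 calls in DESeq2 or limma-voom. Their median log2 fold change was -0.02, and their summed level was 9170 to 10100 CPM in KO and 9960 to 10500 CPM in WT. Slc17a7 was at 1260 to 1370 CPM in KO and 1230 to 1450 CPM in WT. Not every gene on this list is shared by all fields, as Neurod1 also stood among the other dentate genes.

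Markers of other cell types stood as follows beside these results. All 12 microglial genes had a positive log2 fold change (median 0.21), as had all 12 oligodendrocyte genes (0.19), all 17 vascular and fibroblast genes (0.23) and 11 of 12 astrocyte genes (0.11), while 12 of 16 interneuron genes were negative (-0.07). Over all 16861 genes tested 8125 log2 fold changes were positive and 8736 negative. In edgeR 0 microglial, 1 oligodendrocyte (8.33%), 1 vascular (5.88%), 1 astrocyte (8.33%) and 0 interneuron genes passed, against 6.95% of all genes tested. At an unadjusted p under 0.05 in edgeR 7 microglial, 8 oligodendrocyte, 7 vascular and 4 astrocyte genes were higher and 0 lower. For interneurons 0 were higher and 3 lower, and over all 16861 genes tested 3412 were under 0.05. DESeq2 called 2 oligodendrocyte, 2 vascular and 1 astrocyte genes and limma-voom 1 of each, all higher. Neither called a microglial or interneuron gene. Of 7 oligodendrocyte precursor genes 0 passed in edgeR (median 0.13), with 2 higher and 1 lower at an unadjusted p under 0.05 and 0 calls in DESeq2 or limma-voom. Summed levels were 507 to 575 CPM in KO and 429 to 519 CPM in WT for microglia, 6030 to 6770 CPM in KO and 5430 to 5900 CPM in WT for oligodendrocytes, and 6420 to 6520 CPM in KO and 5790 to 6070 CPM in WT for astrocytes. Of 9 choroid plexus and ependyma genes tested 1 rose (11.1%) and 0 fell in edgeR (median 0.49), with 2 higher and 0 lower at an unadjusted p under 0.05, and DESeq2 and limma-voom also called 1 rise and 0 falls. Summed levels were 510 to 650 CPM in KO and 509 to 514 CPM in WT for vascular and fibroblast genes, 81.1 to 141 CPM in KO and 43.1 to 65.2 CPM in WT for choroid plexus and ependyma, and 1160 to 1240 CPM in KO and 1230 to 1310 CPM in WT for interneurons. Kl, the choroid plexus gene that rose, made up most of the 81.1 CPM of KO replicate 2, and no sum was made without it. All markers in these lists had counts. The lists are not fully separate, as Pdgfra stood on both the vascular and the oligodendrocyte precursor list. The part of these other cells' RNA in the changes of Nectin3, Iyd, Trpc6 and Neurod6 was not tested.

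**Figure D4:**
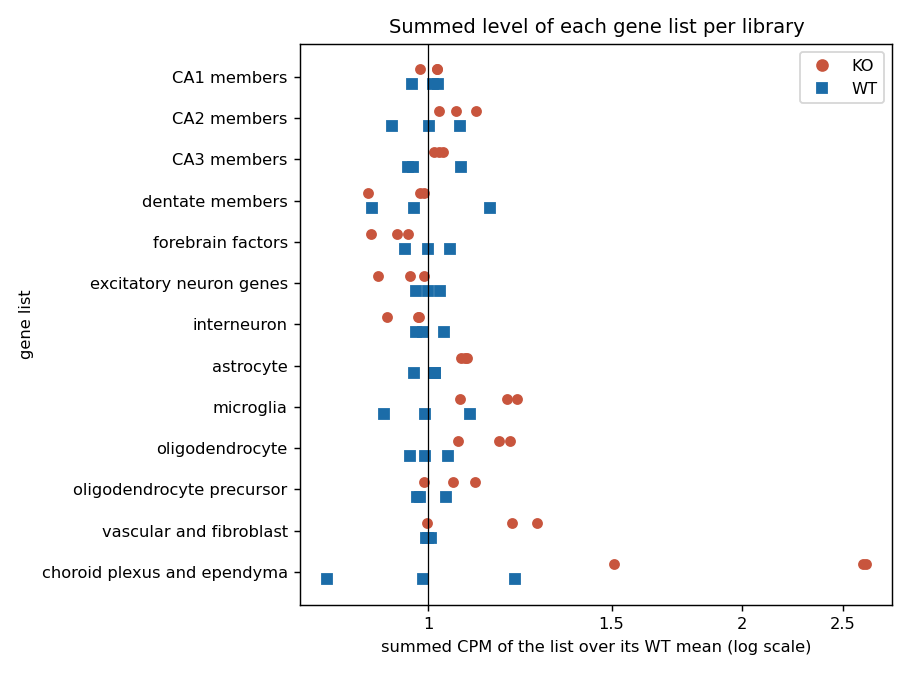
Summed CPM of each gene list in each library over its WT mean (log axis), with KO libraries as circles above WT libraries as squares. Among the lists drawn, KO circles and WT squares overlap for the 4 subfields (486 to 550 CPM in KO and 491 to 636 CPM in WT for the dentate gyrus). The KO circles for oligodendrocytes, astrocytes and the choroid list (81.1 to 141 CPM in KO and 43.1 to 65.2 CPM in WT) lie above all WT squares. KO replicates 1 and 3 set the 2 high circles of the vascular and choroid lists.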

How the data were processed

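The values are raw counts per Ensembl gene deposited by the authors, 1 column per library over 48795 identifiers, 20012 of them without a count. The submitters' processing notes name cutadapt 1.18, HISAT2 and HTSeq 0.11.1, with GRCm38 (mm10) as the genome build. The HISAT2 version, annotation release and strand setting were not given in the sources used here. Symbols, exon lengths and coordinates came from GENCODE M21, which left 360 identifiers unmatched, and start-site sequences from RefSeq (GRCm38.p6).

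Genes were filtered with filterByExpr (minimum count 10, minimum total 15), scaled with TMM and compared, KO over WT, in edgeR (quasi-likelihood, no covariate), with p-values adjusted after Benjamini-Hochberg over 16861 genes and a threshold of 0.05. Intervals are 95% intervals of the fitted log2 fold change, and SE is its size over the root of F. Mean log2 CPM used a prior count of 2. Members, lists and tests were chosen with earlier results of these data known. Members past the threshold and the 2 of each group highest per kilobase of exon are given per library, with any reference-list gene that passed, at most 4 a list. The stand-apart KO libraries were left out as an alternative chosen after seeing the data. Other alternatives were DESeq2 1.42.0, limma-voom (limma 3.58.1), RLE scaling or none, no filter or a minimum of 1 CPM in 3 libraries, a replicate block, and leaving out each library. edgeR was version 4.0.16 under R 4.3.3.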

Additional observations from a re-analysis of the deposited data

How the results depend on the processing

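Map3k15 passed in all 14 alternatives, and Nectin3, Iyd, Coch, Trpc6 and Neurod6 in 13, missing only without KO replicates 1 and 3 (edgeR adjusted p of 0.0512, 0.0937, 0.211, 0.112 and 0.211), a fit that leaves 1 KO library, assumed to vary like WT. In that fit 1 member rose and 0 fell: 0 rose in CA1, CA3 and the dentate gyrus, and 0 fell in CA3, the dentate gyrus and the factors. Over the whole table it gave 424 rises and 16 falls. Its signs changed for Dcn (-0.22), Man1a (-0.09), Gpr161 (0.00), Prox1 (0.03), Tdo2 (0.00) and Neurod2 (0.02). The count of dentate falls was 2 in DESeq2 (Rfx3 added) and 2 with no filter on low counts, where CA3 had 2 rises (Bok added) and 279 genes of the whole table fell against 177. CA1 had 0 rises in limma-voom.

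The replicate numbers do not pair the libraries: correlations of same-numbered deviations were 0.005, -0.009 and -0.024. With a replicate block the members had 0 rises in CA1 and 2 in CA3, as Pou3f1 was lost and Bok gained (adjusted p = 0.0372). RLE, library size alone and the stricter filter changed no call of a member.

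On leaving out 1 library, members that rose numbered 2 to 4 (2 without KO replicate 2, KO replicate 3 or WT replicate 1) and members that fell 4 to 9 (9 without WT replicate 3). Rises were 0 to 1 in CA1, 1 to 2 in CA3 and 0 to 1 in the dentate gyrus, and falls 0 to 1 in CA2, 1 to 3 in the dentate gyrus and 1 to 3 among the factors. Without WT replicate 3 the genes gained were Fibcd1, Bok, Pcp4, Stxbp6, Rfx3, Tbr1 and Meis2. Falls over the whole table ran from 48 without KO replicate 3 to 323 without WT replicate 3. On leaving out 1 library the log2 fold changes of 10 members that did not pass took both signs or reached 0: Amigo2 -0.16 to 0.05, Bcl11b -0.05 to 0.07, Etv1 -0.10 to 0.03, Glis3 -0.25 to 0.05, Lct -0.07 to 0.17, Man1a -0.09 to 0.12, Npnt -0.03 to 0.12, Prox1 -0.15 to 0.05, Wfs1 -0.16 to 0.02 and Zbtb20 -0.15 to 0.11. The cause was not tested. Among genes that passed, 0 changed sign. With 3 libraries a group, members at a few CPM such as Iyd and Coch carry the widest intervals.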

Other observations

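The genes that rose on the marker lists for other cells and regions are named after their values were seen. Rspo1, an enhancer of Wnt signalling, measured 8.77, 12.0 and 10.0 CPM in KO and 0.561, 0.679 and 1.04 CPM in WT (log2 fold change 3.75, SE 0.216, edgeR adjusted p = 6.36e-08). Kl, which encodes klotho and stood on the choroid plexus list, measured 59.9, 55.1 and 61.8 CPM in KO and 23.0, 22.5 and 20.4 CPM in WT (1.42, SE 0.0755, edgeR adjusted p = 2.77e-08). In KO replicate 2 Ttr was below every WT library and Kl was at 55.1 CPM. The part of choroid plexus RNA in the change of Kl was not tested. Among 7 tested genes of immature granule neurons Sox11, a factor of new neurons, rose (14.3% of the list, against 6.95% of all genes tested). Sox11 measured 24.8, 24.9 and 23.2 CPM in KO and 18.2, 21.9 and 16.1 CPM in WT (0.37, SE 0.106, edgeR adjusted p = 0.0489), and lost its call in 7 of 14 alternatives. Of 18 genes of neighbouring regions Rspo1, Rgs9 and Penk rose and 0 fell in edgeR (16.7%, against 6.95% of all genes tested). At an unadjusted p under 0.05 in edgeR 4 were higher and 3 lower, with 0 falls in DESeq2 or limma-voom. Rgs9, a regulator of G-protein signalling known from the striatum, measured 18.2, 19.4 and 17.7 CPM in KO and 12.8, 13 and 13.6 CPM in WT (0.49, edgeR adjusted p = 0.0032) and lost its call only without KO replicates 1 and 3. Penk, which encodes proenkephalin, measured 27.1, 28.5 and 30.7 CPM in KO and 23.3, 21.1 and 24.2 CPM in WT (0.33, edgeR adjusted p = 0.0301). Its call was lost in 5 of 14 alternatives, among them leaving out KO replicate 2 (edgeR adjusted p = 0.0829), KO replicate 3 (0.162), WT replicate 1 (0.0691) or WT replicate 2 (0.087). Gfap, an astrocyte filament, was the astrocyte gene that passed, at 429, 446 and 474 CPM in KO and 326, 328 and 364 CPM in WT (0.41, edgeR adjusted p = 0.000793), and lost its call only without KO replicates 1 and 3. Mbp, a myelin protein, was the oligodendrocyte gene, at 2660, 2870 and 2940 CPM in KO and 2520, 2200 and 2370 CPM in WT (0.25, edgeR adjusted p = 0.0126). Mbp lost its call in 3 of 14 alternatives, among them leaving out KO replicate 2 (edgeR adjusted p = 0.0564) or KO replicate 3 (0.107). Pdgfrb, a pericyte receptor, was the vascular gene, at 39.2, 31.8 and 43.0 CPM in KO and 29.2, 30.1 and 28.8 CPM in WT (0.37, edgeR adjusted p = 0.0337). Pdgfrb lost its call in 6 of 14 alternatives, among them leaving out KO replicate 1 (edgeR adjusted p = 0.111), KO replicate 3 (0.201), WT replicate 1 (0.0992), WT replicate 2 (0.0607) or WT replicate 3 (0.0518). It had a log2 fold change of 0.11 without KO replicates 1 and 3 (edgeR adjusted p = 0.839).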
